A study of Mus musculus with 4 samples.

Results

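Caspases are cysteine proteases that cut proteins after aspartate residues. The gene family was followed here in mouse embryonic fibroblasts with and without FAN. The members were chosen by symbol: every probe set that names only Casp1, Casp2, Casp4, Casp6, Casp8, Casp9 or Casp12 was taken. This gave 11 probe sets for 7 genes, out of 34945 probe sets for 18193 genes. Of the 7 genes, 6 lay above the floor used for low values on at least 2 arrays and could be tested. Casp1 did not.

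The fibroblasts (MEFs) were primary cells from C57BL/6 embryos that lacked FAN (FAN -/-) or were wild type (FAN +/+). FAN, the product of Nsmaf, is an adaptor protein that binds a TNF receptor and is linked to neutral sphingomyelinase. TNF-treated cells of each genotype spent 8 h in serum-free medium and then 16 h in serum-free medium with 50 ng/ml TNF, and untreated cells spent 24 h in serum-free medium. All 4 groups were therefore serum-starved. Total RNA of each group was measured on 1 Affymetrix mouse expression array, and no group has a replicate. The sources used here do not give the allele, the number of embryos behind each cell preparation or the passage of the cells. Groups follow the sample titles. For 2 of the 4 samples, TNF-treated FAN +/+ and untreated FAN -/-, the genotype entry of the labels names the other genotype. By those entries genotype and treatment would coincide and could not be told apart.

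Caspases fall into classes by what starts them and what they cut. Initiators such as the products of Casp8, Casp9 and Casp2 are activated on protein platforms, namely the death receptor complex, the apoptosome and the PIDDosome. Effector caspases, among them the product of Casp6, then cut structural and nuclear proteins. Inflammatory caspases are encoded by Casp1 and Casp4. The mouse Casp4 product, long called caspase-11, binds bacterial lipopolysaccharide in the cytosol and cuts gasdermin D, and the Casp1 product matures interleukins on inflammasomes. Casp12 has been linked to stress of the endoplasmic reticulum in mouse cells.

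Values are log2 probe set values as deposited. The floor was the median of all values on all arrays (6.27 log2, or 77.0 signal units), and lower values were raised to it before any difference was taken. "Rose" and "fell" are used only for genes past a limma fit with one term for genotype and one for TNF (adjusted p below 0.05 over 11817 genes). In this fit each treatment and each genotype has 2 arrays, and the single residual degree of freedom measures how far the TNF response differs between genotypes. The p-values of the fit rest on that difference and on a variance shared over all genes (3.52 prior degrees of freedom). They measure no spread between replicate arrays or cultures, and whether the arrays come from separate cultures is not stated. Median values of the arrays lay between 6.21 and 6.30, and 49.2% to 50.5% of probe sets were above the floor. Nsmaf, the targeted gene, read 7.48 with TNF and 7.91 untreated on the FAN -/- arrays, against 8.55 and 8.95 on the FAN +/+ arrays. It fell by 1.06 ± 0.11 log2 with the knockout (SE, limma adjusted p = 0.019), the direction the titles give. The sources used here do not say where in Nsmaf the deletion lies, and a probe set outside it would not show it.

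Casp4 was the caspase that TNF moved most, and it also differed most between genotypes. Its probe set read 9.41 log2 with TNF and 6.35 untreated in FAN -/- cells, against 10.60 and 8.45 in FAN +/+ cells. As signals these are 678 and 81.4 units in FAN -/- cells, against 1555 and 349 in FAN +/+ cells. The order of the 4 arrays was thus TNF-treated FAN +/+, TNF-treated FAN -/-, untreated FAN +/+ and untreated FAN -/-. Both TNF arrays lay above both untreated ones, and within each treatment the FAN -/- array was the lower. The untreated FAN -/- value was barely above the floor.

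**Figure D1:**
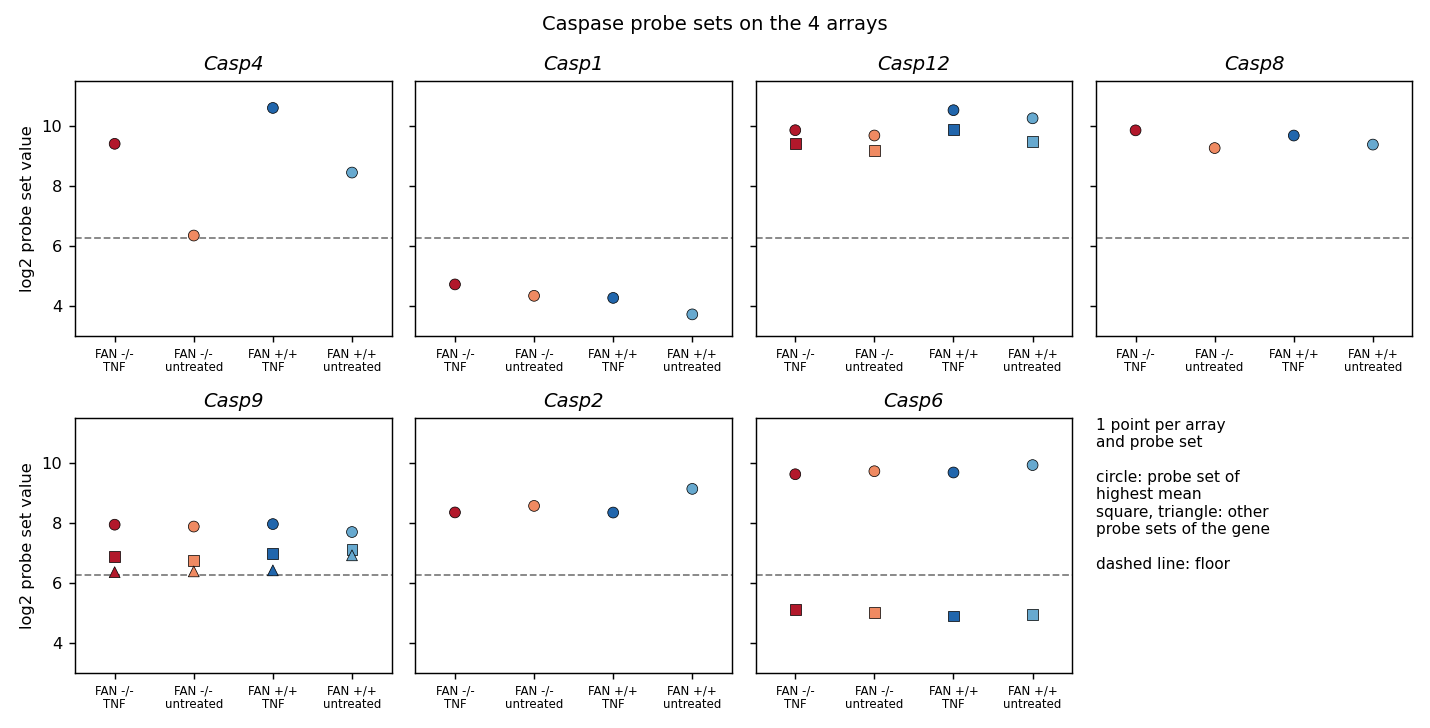
Deposited log2 probe set values (vertical axis) of every caspase probe set on the 4 arrays (horizontal axis), 1 point per array. Casp4 spans 6.35 to 10.60, Casp1 stays under the dashed floor of 6.27 on all arrays, and the other genes vary by less than 1 log2 unit.

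With TNF, Casp4 was 8.34-fold higher in FAN -/- cells (3.06 log2) and 4.45-fold higher in FAN +/+ cells (2.16 log2). Of 12224 genes above the floor on at least 1 array, 1.35% were at least 2-fold higher with TNF in FAN -/- cells (1.07% lower) and 2.20% in FAN +/+ cells (1.92% lower). Casp4 was the single caspase past 2-fold in either. In the additive fit it rose by 2.61 ± 0.24 log2 (SE, 95% confidence interval 1.97 to 3.24, limma adjusted p = 0.021). This is the 28th largest absolute TNF effect of the 11817 genes. In all, 186 genes (1.57%) rose and 135 (1.14%) fell, or 2.72% in either direction. With each array centred on its median, which shifts the split, 405 rose and 518 fell, and Casp4 was still among those that rose.

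Between genotypes Casp4 was lower in FAN -/- cells by 2.29-fold with TNF (-1.20 log2) and by 4.29-fold untreated (-2.10 log2). Of the same 12224 genes, 2.64% were at least 2-fold lower in FAN -/- cells with TNF (1.55% higher) and 2.89% untreated (1.45% higher). In the additive fit Casp4 fell by 1.65 ± 0.24 log2 with the knockout (SE, interval -2.29 to -1.01, limma adjusted p = 0.033), where 3.67% of genes fell and 2.94% rose, or 6.61% in either direction. With no floor and no filter the same difference had an adjusted p of 0.057. With any 1 array left out, which allows a model of one factor only, neither Casp4 call passed: its TNF effect lay between 1.56 and 3.66 log2 and its genotype effect between -3.18 and -0.12 (-0.12 without the untreated FAN -/- array). In RNA of whole cultures, fewer cells with a transcript and less of it per cell cannot be told apart.

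The log2 response of Casp4 was 0.90 larger in FAN -/- than in FAN +/+ cells, although its value after TNF stayed lower in FAN -/- cells. This difference of responses could not be tested, because no degree of freedom is left for it. A response at least 2-fold larger in FAN -/- cells was seen in 0.794% of genes, and at least 2-fold smaller in 0.818%. All Casp4 values lie above the floor, so a floor at the 30th percentile or no floor cannot change the difference of 0.90. It was 0.89 under quantile normalization and 0.95 under median centring. All of these use the untreated FAN -/- value near the floor. A floor at the 70th percentile (7.84 log2) replaces that value, which by itself shrinks the response in FAN -/- cells. There the response was 1.56 log2 and the difference -0.59. The genotype difference in untreated cells was then -0.60 log2. The pattern of at least 2-fold higher with TNF in both genotypes and at least 2-fold lower in FAN -/- cells in both treatments, a combination picked after the Casp4 values were seen, was shared by 19 of 12224 genes (0.155%), Casp4 included. Its TNF condition alone held for 1.01% of genes and its genotype condition for 1.46%.

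**Figure D2:**
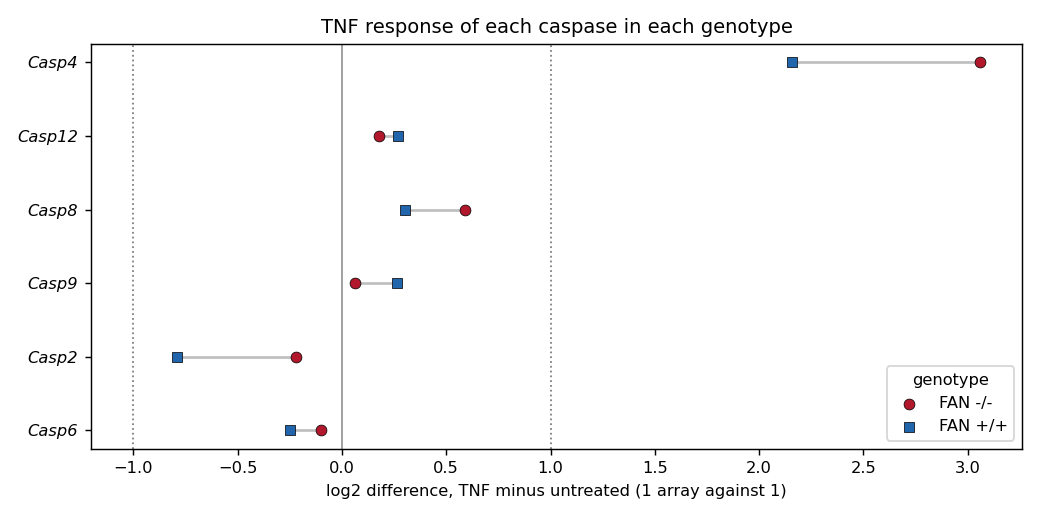
TNF response of each tested caspase as a log2 difference, TNF minus untreated (horizontal axis), 1 array against 1, in FAN -/- (circles) and FAN +/+ cells (squares). Casp4 lies past the dotted 2-fold lines in both genotypes (3.06 and 2.16), and the other 5 genes lie between -0.79 and 0.59.

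Casp4 lies on chromosome 9 between Casp1 and Casp12 in the RefSeq gene order of the mouse assembly GRCm38.p6, with no other protein-coding gene between them. Their start-site regions are printed here because Casp4 and Casp12, both of which fell with the knockout, are adjacent to each other, with Casp1 on the other side of Casp4. Each sequence runs 5' to 3' on the plus strand, from 250 bases before to 50 bases after the RefSeq start site. Capitals mark matches to the NF-kB consensus or to the GAS motif TTCNNNGAA, bound by STAT factors. The stretches in capitals in Casp4 are NF-kB matches and those in Casp12 are GAS matches, and the Casp1 window has neither.
Casp4, chr9:5308599-5308898: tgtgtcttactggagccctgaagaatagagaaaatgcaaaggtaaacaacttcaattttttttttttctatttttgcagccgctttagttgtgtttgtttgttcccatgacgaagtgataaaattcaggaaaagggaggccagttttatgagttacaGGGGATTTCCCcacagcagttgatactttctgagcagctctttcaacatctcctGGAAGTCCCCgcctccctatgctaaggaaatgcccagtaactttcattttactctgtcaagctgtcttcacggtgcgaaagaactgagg
Casp1, chr9:5298267-5298566: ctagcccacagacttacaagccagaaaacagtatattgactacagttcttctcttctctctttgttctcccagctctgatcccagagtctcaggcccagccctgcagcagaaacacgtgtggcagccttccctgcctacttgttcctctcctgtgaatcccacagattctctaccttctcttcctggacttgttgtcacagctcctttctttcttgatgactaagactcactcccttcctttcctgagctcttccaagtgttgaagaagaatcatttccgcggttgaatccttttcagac
Casp12, chr9:5345226-5345525: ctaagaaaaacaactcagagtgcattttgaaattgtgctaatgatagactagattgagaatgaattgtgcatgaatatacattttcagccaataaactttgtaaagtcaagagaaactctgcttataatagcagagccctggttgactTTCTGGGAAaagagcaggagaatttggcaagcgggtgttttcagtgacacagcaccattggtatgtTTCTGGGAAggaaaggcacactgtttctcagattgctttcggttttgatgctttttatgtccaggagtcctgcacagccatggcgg
The Casp4 window holds 2 separate stretches with an NF-kB match. The first, GGGGATTTCCC, joins overlapping matches on both strands and spans bases -93 to -83 from the start site, and the second, GGAAGTCCCC, is a match on the minus strand at -39 to -30. RefSeq lists a second Casp4 start a few bases downstream, whose window holds the same stretches. The 2 GAS matches in Casp12 start at -102 and -36. Promoter sequences were found for all 7 genes, and neither motif had a match in Casp2, Casp6, Casp8 or Casp9. The interferon-response core, GAAA repeated after any 2 bases, matched in none of the 7. Searched on both strands of all 32851 promoter windows of 300 bases, the NF-kB consensus occurs in 8.46%, GAS in 8.3% and the interferon-response core in 3.44%. A match describes the letters and shows no binding.

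Casp1, which encodes the interleukin-1 converting enzyme, was not above the floor on any array. Its deposited values were 4.72 with TNF and 4.34 untreated in FAN -/- cells, against 4.27 and 3.72 in FAN +/+ cells. Under the floor these values have no order that can be relied on, and Casp1 was left out of the main fit. In the setting with no floor and no filter it was among the genes tested and did not pass for TNF or genotype.

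Casp12 was lower in FAN -/- cells. On both of its probe sets the TNF array lay above the untreated one in each genotype, by 0.18 to 0.41 log2, 1 array against 1. Its probe set of highest mean read 9.86 with TNF and 9.68 untreated in FAN -/- cells, against 10.53 and 10.26 in FAN +/+ cells. Its second probe set, designed on the same transcript, read 9.43 and 9.17 against 9.89 and 9.48 in the same order. On both probe sets the 2 FAN -/- arrays lay under the 2 FAN +/+ arrays. Both were read on the same 4 arrays, so the second probe set is no independent measurement. The share of all genes with this order was not counted.

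In the additive fit Casp12 fell by 0.62 ± 0.10 log2 with the knockout (SE, 95% interval -0.88 to -0.36, limma adjusted p = 0.040), a 1.54-fold difference. The call was lost when both probe sets were averaged (-0.50 log2, adjusted p = 0.056) and with no floor and no filter (adjusted p = 0.061). The TNF effect was 0.22 log2 (interval -0.04 to 0.48) and did not pass (adjusted p = 0.32). Casp4 and Casp12 were thus the 2 of 6 tested caspases that fell with the knockout, beside 3.67% of all genes. None rose, beside 2.94% of all genes, and Casp4 alone rose with TNF, beside 1.57%.

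**Figure D3:**
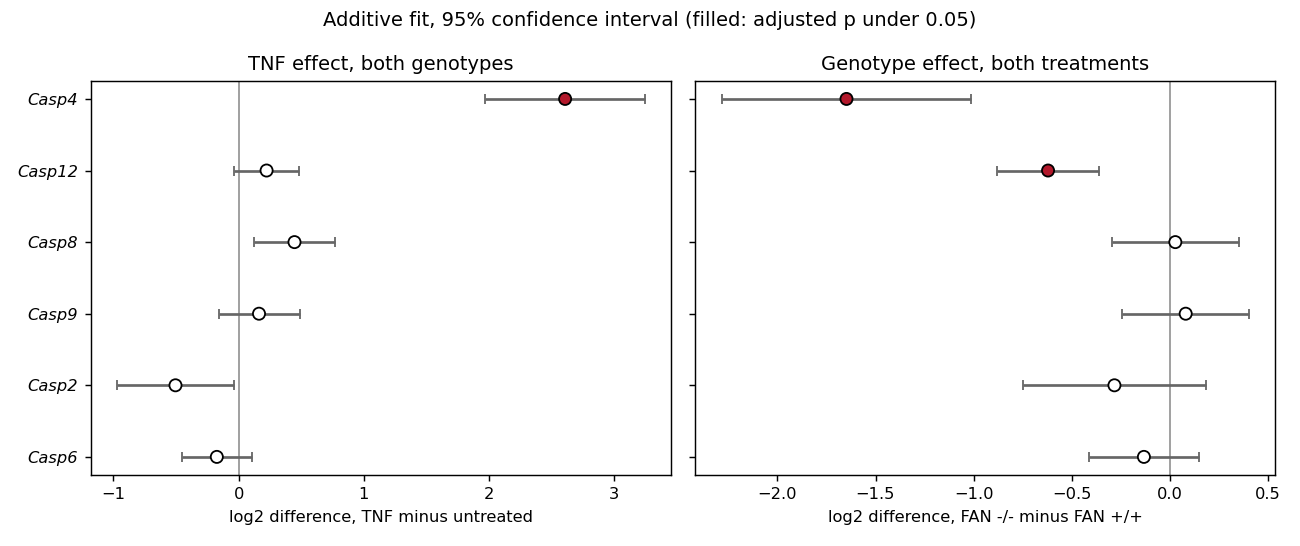
Effects of TNF (left) and of the FAN knockout (right) on each tested caspase in the additive fit, as log2 differences (horizontal axes) with 95% confidence intervals. Filled points passed the adjusted test: Casp4 at 2.61 for TNF, and Casp4 at -1.65 and Casp12 at -0.62 for the knockout.

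Casp8 encodes the initiator of death receptor signalling. It read 9.86 with TNF and 9.26 untreated in FAN -/- cells, against 9.68 and 9.38 in FAN +/+ cells. Both TNF arrays were above both untreated ones, by 1.51-fold in FAN -/- and 1.23-fold in FAN +/+ cells. The TNF effect of 0.45 ± 0.12 log2 (SE, interval 0.12 to 0.77) had an unadjusted p of 0.017 and an adjusted p of 0.17 in limma, so it did not pass. Over all genes 8.20% were higher and 10.6% lower with TNF at an unadjusted p under 0.05, and with the knockout 11.2% and 13.3%. The genotype effect was 0.03 log2 (interval -0.30 to 0.35, adjusted p = 0.91).

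Casp2 encodes the caspase of the PIDDosome. It read 8.34 with TNF and 8.56 untreated in FAN -/- cells, against 8.34 and 9.13 in FAN +/+ cells. The untreated FAN +/+ array stood above the other 3, which lay within 0.22 log2 of each other. The TNF effect of -0.50 ± 0.17 log2 (SE, interval -0.97 to -0.04) did not pass in limma (adjusted p = 0.24), nor did the genotype effect of -0.28 (interval -0.75 to 0.18, adjusted p = 0.39).

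Casp6 encodes an effector caspase that cuts nuclear lamins. It read 9.62 with TNF and 9.72 untreated in FAN -/- cells, against 9.67 and 9.92 in FAN +/+ cells. Neither the TNF effect (-0.17 log2, interval -0.45 to 0.10) nor the genotype effect (-0.13, interval -0.41 to 0.15) passed in limma (adjusted p = 0.44 and 0.50). Its second probe set was under the floor on all 4 arrays, at 4.89 to 5.09.

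Casp9 encodes the initiator that is activated on the apoptosome. Its probe set of highest mean read 7.93 with TNF and 7.87 untreated in FAN -/- cells, against 7.95 and 7.69 in FAN +/+ cells. The TNF effect was 0.16 log2 (interval -0.16 to 0.49, limma adjusted p = 0.52) and the genotype effect 0.08 (interval -0.24 to 0.40, adjusted p = 0.72). The 3 probe sets of Casp9 disagreed in FAN +/+ cells. There the TNF response was 0.26 on this one, -0.15 on the second and -0.50 on the third, whose values of 6.35 to 6.91 lay close to the floor. No direction can be given for Casp9.

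Across the family, 4 of the 6 tested caspases had a positive TNF effect, beside 5489 of all 11817 genes tested. The caspase median was 0.19 log2 beside -0.02 over all genes tested. The genotype effect was negative for 4 of 6, beside 6094 of 11817 genes, with a median of -0.21 beside -0.01 over all genes. These medians describe 6 genes and were not tested.

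The genes that work with the caspases were then described by list. Of the inflammasome and pyroptosis list, 14 of 20 genes had a probe set and 10 were tested. With TNF, 2 rose, beside 1.57% of all genes, and Txnip, which encodes a thioredoxin-binding protein linked to NLRP3 activation, fell by 0.84 ± 0.10 log2 (SE, limma adjusted p = 0.036), a call that a floor at the 30th percentile removed. Gsdmd, which encodes the pore-forming target of the Casp4 product, read 10.36 with TNF and 8.73 untreated in FAN -/- cells, against 10.62 and 9.03 in FAN +/+ cells. It rose by 1.61 ± 0.10 log2 (adjusted p = 0.011). Its genotype effect of -0.28 did not pass (adjusted p = 0.19). Gbp2, a guanylate-binding protein that helps to expose bacterial lipopolysaccharide to the Casp4 product, rose by 3.43 ± 0.18 log2 (adjusted p = 0.0098). Gbp2 and Gsdmd responded in FAN -/- cells by 3.10 and 1.63 log2, against 3.75 and 1.58 in FAN +/+ cells. Il18, a cytokine precursor cut by the Casp1 product, fell by 0.93 ± 0.13 log2 with the knockout (adjusted p = 0.030). Aim2, Il1a, Il1b and P2rx7 were under the floor on all 4 arrays, as Casp1 was. The list median for TNF was 0.16 log2.

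Of 13 genes known to regulate Casp4 or to carry signals to it, chosen with earlier results of these data known, 11 had a probe set and 10 were tested. All 10 had a positive TNF effect with a median of 0.76 log2, beside 5489 of all 11817 genes tested and a median of -0.02. In limma 5 rose, beside 1.57% of all genes. Irf1, a transcription factor of interferon signalling, rose by 1.64 ± 0.12 log2 (SE, adjusted p = 0.014). Ifngr2 rose by 1.12, Ifngr1 by 0.91 and Ifnar2 by 0.77, all of them interferon receptor chains, and Rela, an NF-kB subunit, rose by 0.75. With the floor at the 30th percentile, 2 genes of the list rose, beside 139 of all 14836 genes tested there. With the knockout, Stat2 fell by 0.60 (adjusted p = 0.048) and Ifnar2 by 0.59 (adjusted p = 0.043), beside 3.67% of all genes. Neither call held with the floor at the 30th percentile. Under median centring 4 genes of the list fell with the knockout, beside 980 of all 11799 genes tested there.

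**Figure D4:**
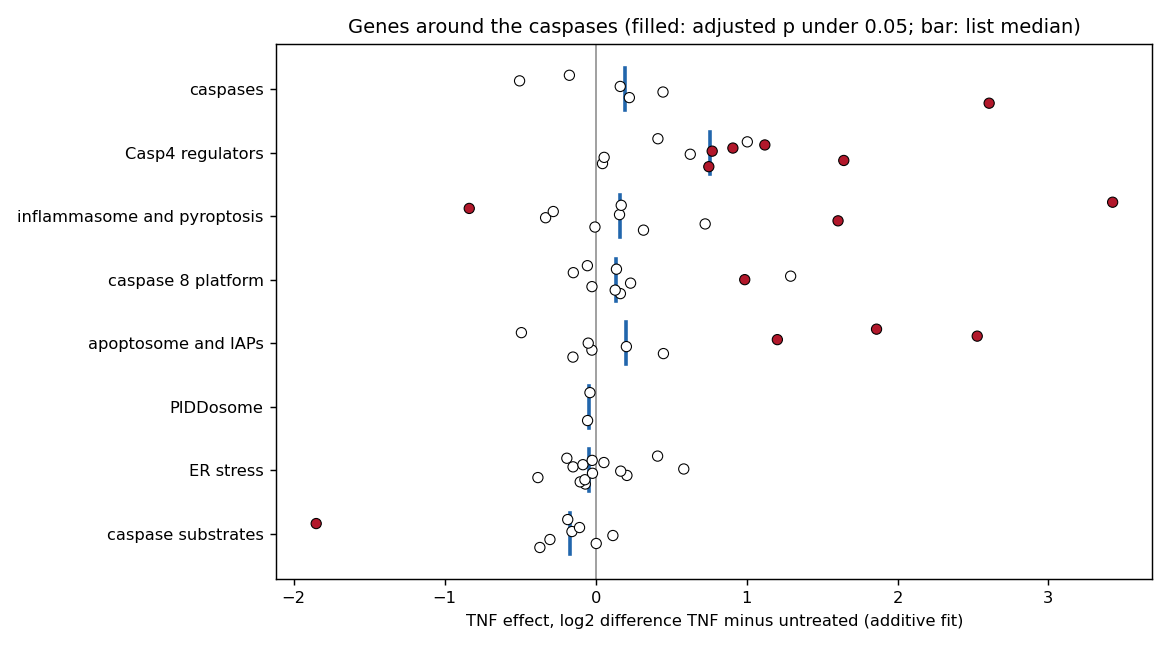
TNF effect of every tested gene of the caspase family and of 7 lists around it, as the log2 difference TNF minus untreated in the additive fit (horizontal axis). Filled points passed the adjusted test and bars are list medians, which run from -0.17 for caspase substrates to 0.76 for Casp4 regulators.

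Around Casp8, 9 of 10 genes were tested. Mlkl, the executor of necroptosis, rose with TNF by 0.99 ± 0.11 log2 (SE, limma adjusted p = 0.031), a call lost with no floor and no filter. Its partner kinase Ripk3 rose by 0.92 ± 0.13 with the knockout (adjusted p = 0.030). The list median for TNF was 0.14. Around Casp9, all 9 genes of the apoptosome and IAP list were tested, and 3 rose with TNF, beside 1.57% of all genes. With the floor at the 30th percentile, or with no floor and no filter, 2 genes of the list rose. Over all genes 139 of 14836 and 125 of 18193 rose there. Birc3 rose by 2.53 ± 0.14 and Birc2 by 1.20 ± 0.16, both encoding inhibitor-of-apoptosis proteins (adjusted p = 0.010 and 0.044). Bid, which encodes a substrate of the Casp8 product that acts on mitochondria, rose by 1.86 ± 0.10 (adjusted p = 0.0098). The list median was 0.20, and 0 of 9 genes passed for genotype in limma, while the unadjusted p was under 0.05 for 2 higher and 4 lower genes, beside 11.2% and 13.3% of all genes. Under 6 of the other settings 1 gene fell, where from 334 of 18193 to 980 of 11799 of all genes fell. With the floor at the 70th percentile and under quantile normalization 1 rose, beside 330 of 8189 and 468 of 11799 genes. Of the PIDDosome genes around Casp2, Pidd1 and Cradd had TNF effects of -0.05 and -0.04 log2. Neither had an unadjusted p under 0.05 for TNF. With the knockout, Pidd1 had an effect of 0.67 log2 (unadjusted p = 0.0034, limma adjusted p = 0.0505) and Cradd of -0.33 (unadjusted p = 0.032, adjusted p = 0.16). Neither passed, but 1 gene of the pair was higher past the test under 6 of the other settings, among them quantile normalization and median centring. Over all genes from 306 of 11817 to 519 of 10289 were higher under these settings.

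Of 14 endoplasmic reticulum stress genes, all were tested and 0 passed for TNF or genotype in limma. At an unadjusted p under 0.05, 2 were higher and 1 lower with TNF, beside 8.20% and 10.6% of all genes, and 3 were higher with the knockout, beside 11.2%. With the knockout 1 or 2 genes rose under 5 of the other settings, where from 354 of 10508 to 519 of 10289 of all genes rose. On the probe set of largest spread 1 fell with TNF, beside 294 of 10289 genes. The largest TNF effects were 0.58 for Ern1, a stress sensor, and 0.41 for Traf2 (adjusted p = 0.13 and 0.17). Of 9 caspase substrates 8 were tested. Gas2, which encodes a microfilament-associated protein cut during apoptosis, fell by 1.85 ± 0.10 log2 with TNF (SE, limma adjusted p = 0.0098) and by 0.86 ± 0.10 with the knockout (adjusted p = 0.022). The genotype call was lost on averaged probe sets. Casp14, a caspase of the epidermis, had a TNF effect of 0.03 log2 and a genotype effect of 0.21, and neither passed in limma (adjusted p = 0.91 and 0.34). These rest on its probe set of highest mean. On the probe set of largest spread Casp14 did not exceed the floor on enough arrays to be tested.

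The arrays carried the markers of fibroblasts: all 9 were above the floor, with a summed signal of 73203 and 84718 units with TNF and untreated in FAN -/- cells, against 95216 and 98241 in FAN +/+ cells. Among them Dcn, Pdgfra and S100a4 fell with the knockout, by 1.64, 1.62 and 0.54 log2 (limma adjusted p = 0.035, 0.011 and 0.028). These were 3 of 9 markers, beside 3.67% of all genes. Thy1, Pdgfrb and Vim went the other way, with genotype effects of 0.50, 0.16 and 0.04 log2 that did not pass. Thy1 fell by 0.82 with TNF (adjusted p = 0.0498). Of 9 macrophage and leukocyte markers, 4 were tested and none passed in limma. At an unadjusted p under 0.05, 1 of them (Cd14) was higher with TNF, beside 8.20% of all genes. The pan-leukocyte marker Ptprc and the markers Cd68, Adgre1, Itgam and Fcgr3 were under the floor on all arrays. The list's summed signal was 1139 with TNF and 1592 untreated in FAN -/- cells, against 1271 and 806 in FAN +/+ cells. Lyz2 was the largest part of the highest sum, with 778 units on the untreated FAN -/- array. It read 310 with TNF in FAN -/- cells, and 347 with TNF and 237 untreated in FAN +/+ cells. Cd14 was highest on the TNF-treated FAN +/+ array (381 units), so the order of the sum did not hold for every marker. Of 5 endothelial markers 3, among them Pecam1 and Cdh5, and of 5 epithelial markers 2, Cdh1 and Krt18, were under the floor on all arrays. The endothelial markers Kdr and Tek and the epithelial markers Epcam, Krt8 and Krt19 were above it on all 4 arrays, with Epcam at 9.05 to 9.25 log2. The part of these shifts in the caspase values was not tested.

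Genes with a profile like that of Casp4 were sought over the 4 arrays by the root mean square difference of mean-centred log2 values. The 5 nearest were Cx3cl1, a chemokine (0.31 log2), Gch1, an enzyme of tetrahydrobiopterin synthesis (0.34), Mt2, a metallothionein (0.40), Tlr2, a receptor for bacterial lipopeptides (0.44), and Rnd1, a small GTPase (0.44). Cx3cl1, the nearest, read 10.44 with TNF and 8.02 untreated in FAN -/- cells, against 11.46 and 9.73 in FAN +/+ cells. Its likeness to Casp4 chose it, so its own differences were not read as a test. For Casp12 the nearest were 5031425E22Rik (0.02), Tctex1d2 (0.03), Sh3d19 (0.05), Ifitm2 (0.05) and Nrde2 (0.06). With 4 arrays, likeness is a description of these values.

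**Figure D5:**
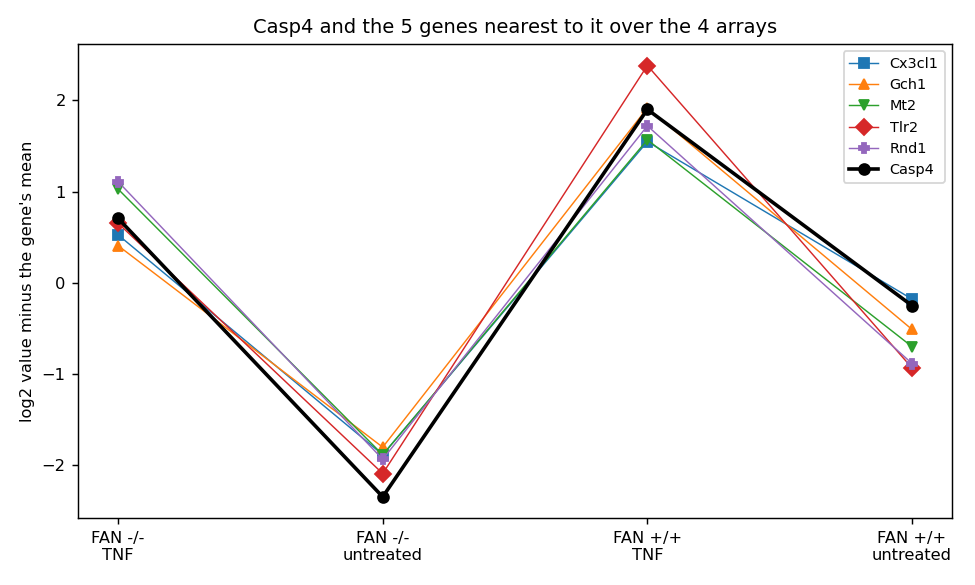
Log2 values of Casp4 (black) and the 5 genes nearest to it, each minus its own mean (vertical axis), on the 4 arrays (horizontal axis). The lines only join the points of a gene, and all 6 genes are highest on the TNF-treated FAN +/+ array and lowest on the untreated FAN -/- array.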

How the data were processed

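RNA of 4 groups, 1 array each, was compared. The authors deposited 1 value per probe set and array. The deposited values lie between 2.79 and 14.40 and were read as log2, and the submitters' processing notes name MAS5 with neither version nor role. The sources used here do not give the normalization between arrays, so its effect on low values is unknown. Of 45101 probe sets, 34945 name 1 gene in the platform annotation, and for 34741 the Entrez identifier matched RefSeq (GRCm38.p6).

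Values below the 50th percentile were raised to it on the log2 scale. Where a gene had several probe sets, the one with the highest mean stood for it. Differences of 1 array against 1 carry no p-value. An additive model of genotype and TNF was fitted in R 4.3.3 with limma 3.58.1 (lmFit, eBayes with intensity trend, 1 residual and 3.52 prior degrees of freedom, Benjamini-Hochberg) to the 11817 genes that exceeded the floor on 2 or more arrays, and was tested on simulated data with 200 changed genes. Figures were drawn in Python 3.11.15 with matplotlib 3.10.9. Named genes are the members, Nsmaf, list genes past the test (or, where none passed, up to 2 with the largest TNF effect), markers and the 5 nearest profiles. Alternatives covered the floor, normalization, choice of probe set, variance model, covariate and, added after the data were seen, leaving out each array. The members and lists were chosen with earlier results of these data known. The number of arrays limits the precision.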

Additional observations from a re-analysis of the deposited data

Results flagged for a closer look

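For 3 caspases the FAN -/- minus FAN +/+ difference had opposite signs in the 2 treatments, each time of 1 array against 1. It was 0.17 log2 with TNF and -0.12 untreated for Casp8, -0.0199 and 0.18 for Casp9, and 0.0039 and -0.57 for Casp2. These differences between treatments were not tested. For Casp9 the signs were the same on averaged probe sets (-0.057 with TNF and -0.24 untreated), on each of its other probe sets, and under quantile normalization (0.00036 and 0.24). For Casp2 they were the same under median centring (-0.025 and -0.65).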

How the results depend on the processing

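Limits come first: 4 arrays, 1 residual degree of freedom and signals near the floor bound every value, and a gene under the floor has no measured difference. Casp4 rose with TNF under 10 of the 11 other settings (adjusted p 0.00018 to 0.039). The exception was leaving the other factor out, where the genotype difference enters the error: Casp4 then had 2.61 log2 (adjusted p = 0.65) for TNF and -1.65 (0.63) for genotype, 0 caspases passed for either, and over all genes 0 rose and 0 fell with TNF in limma (450 and 434 at an unadjusted p under 0.05) and 4 rose and 6 fell with the knockout. With no floor and no filter, the genotype effect of Casp4 was -1.65 (adjusted p = 0.057). There 0 of 7 caspases, Casp1 now included, fell with the knockout, and 71 genes fell with TNF. With a floor at the 70th percentile, 225 genes fell with TNF, and for Casp4 the response in FAN -/- cells was 1.56, the untreated genotype difference -0.60 and the difference of responses -0.59, which turned its sign. Median centring gave 405 and 518 genes with TNF and 532 and 980 with the knockout (higher and lower), and the probe set of largest spread gave 304 and 294 with TNF and 660 lower with the knockout. With probe sets averaged, 1 caspase fell with the knockout. Among the additive effects of the caspases, the directions that turned, none of them past the test, were the genotype effect of Casp8 under median centring (-0.025) and the effects of Casp9 on averaged probe sets (TNF -0.037, genotype -0.15) and on the probe set of largest spread (TNF -0.26, genotype -0.30). Among the differences of 1 array against 1, signs also turned on averaged probe sets for Casp9 (FAN +/+ response -0.13, untreated genotype difference -0.24, difference of responses 0.18) and for Casp6 with TNF (0.074), under median centring for Casp2 with TNF (-0.025) and under quantile normalization for Casp9 with TNF (0.00036). On its other probe sets Casp9 turned in the same 3 differences, and on one of them also in the FAN -/- response (-0.026).

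Leaving out each array in turn was added after the data were seen and needed a model of one factor, so the lost array and the lost factor cannot be told apart. No caspase passed in any of these limma fits, and 0 genes passed either way for TNF or the knockout, with 195 to 1225 at an unadjusted p under 0.05. Without TNF-treated FAN -/-, untreated FAN -/-, TNF-treated FAN +/+ or untreated FAN +/+, in that order, the TNF effect of Casp4 was 3.21, 1.56, 2.01 and 3.66 log2 and its genotype effect -3.18, -0.12, -0.57 and -2.73. Signs turned for the TNF effect of Casp12 (-0.11 and -0.063) and for the genotype effects of Casp8 (-0.27 and -0.12), Casp9 (-0.051) and Casp2 (0.11). Each group has 1 array, so there were no replicates to pair. The additive fit already compares treatments within each genotype and genotypes within each treatment.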
